A study of Mus musculus with 6 samples.

Results

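Cuzd1, Plbd1 and Gsg1l are 3 genes with little known role in tendon that were clearly counted in wild-type (WT) tail tendon and fell about 9-fold or more in tail tendon of Mkx-/- mice. They were chosen by that fall, as 3 of 44788 gene symbols in the table of bulk RNA-seq counts and 3 of 14550 symbols with enough counts to test. Their fold changes between the genotypes are therefore given as a description, with no test. Whole tail tendons of C57BL/6 mice, 3 WT and 3 Mkx-/-, were minced for RNA, and the labels give an age of 3 weeks for every mouse. The paper states an older age. The Mkx-/- mice were constitutive knockouts, so every cell type of the tissue carried the deletion, and which exons were removed is not stated in the sources used here. No treatment was given, and nothing in the labels says whether a library came from 1 animal or from several, so the spread between libraries may be partly technical.

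Mkx encodes Mohawk, a homeodomain transcription factor of the TALE class that is related to the Iroquois proteins and is needed for normal collagen fibrils in tendon. The products of the 3 genes are unrelated to each other. Cuzd1 encodes a secretory-pathway protein with CUB and zona pellucida-like domains, best known from zymogen granules of the exocrine pancreas and from the uterus and mammary gland. Plbd1 encodes a phospholipase B-like hydrolase of granules and lysosomes that is known from neutrophils and other myeloid cells. Gsg1l encodes a membrane protein of the claudin fold that binds AMPA-type glutamate receptors in neurons as an auxiliary subunit and limits their currents.

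In mm9, the build to which the reads were aligned, all 3 genes lie on the minus strand. Cuzd1 spans chr7:138452069-138465806 with 9 exons and 2255 exonic bases. Plbd1 spans chr6:136560591-136610449 with 11 exons and 2633 exonic bases. Gsg1l is the longest, at chr7:133021933-133225925, with 7 exons and 3924 exonic bases. Neither Plbd1 nor Gsg1l is overlapped by another annotated gene. The annotation places all of Cuzd1 inside the record of Fgfr2, a fibroblast growth factor receptor gene on the same strand, with 0 shared exonic bases. That record runs over chr7:137305965-140315033, is far longer than Cuzd1 and also covers other genes, among them Htra1. Whether the gene Fgfr2 itself reaches Cuzd1 was not checked.

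The RefSeq promoter table (GRCm38.p6) matched 2 of the 3 members, Cuzd1 and Plbd1, and did not hold Gsg1l. Their 250 bases before the start are shown because the genes fell together, with matches to any of 5 motifs in capitals. The motifs, searched on both strands, were chosen for this tissue and this factor. They were the TATA box (TATAAA) and the E-box (CANNTG) that basic helix-loop-helix factors such as Scleraxis read. A palindrome of the Iroquois type (ACATGT) and its wider form (ACANNTGT) were added, and every match to the wider form also holds an E-box. The last was the Smad-type element (CAGAC).
Cuzd1, chr7:131322293-131322542, minus strand: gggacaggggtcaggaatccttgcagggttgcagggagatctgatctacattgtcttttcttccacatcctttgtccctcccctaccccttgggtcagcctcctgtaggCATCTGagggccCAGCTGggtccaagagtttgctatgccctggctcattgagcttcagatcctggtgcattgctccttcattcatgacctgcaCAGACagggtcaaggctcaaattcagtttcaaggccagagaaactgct
Plbd1, chr6:136661894-136662143, minus strand: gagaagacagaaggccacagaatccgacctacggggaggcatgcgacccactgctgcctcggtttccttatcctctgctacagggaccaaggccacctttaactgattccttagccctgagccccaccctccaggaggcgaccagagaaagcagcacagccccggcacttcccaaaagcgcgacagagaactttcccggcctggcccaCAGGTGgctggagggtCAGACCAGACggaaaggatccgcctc
The Cuzd1 window held E-boxes that begin 141 and 129 bases before the start and a Smad-type element that begins at 48. The Plbd1 window held an E-box that begins 42 bases before the start, followed by Smad-type elements at 26 and 21. Neither window held the TATA box or either palindrome. Of 32851 promoters of the same length in the table, 66.2% held an E-box, 42.2% the Smad-type element, 12.4% the TATA box, 4.58% the shorter palindrome and 6.31% the wider one. The windows differed in base composition. Cuzd1 had 53.2% G and C with 0 CpG dinucleotides, which 7.87% of all promoters also lack, and Plbd1 had 60.8% with 11 CpG, against medians of 52.4% and 6. A match of letters is a description and does not show that a factor binds there.

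The libraries held between 10835070 and 14160301 counts. Levels are given as CPM, which are counts scaled to a common library total after TMM normalization. Mkx itself had 143.8, 135.5 and 135.0 CPM in WT against 56.8, 41.4 and 38.9 CPM in Mkx-/- tendons, so 33.1% of its level remained as reads on the gene. The counts do not show from which exons those reads came. Counts on Y-linked Ddx3y were found in WT replicate 3 (301) and in 0 of the other 5 libraries, which marks it as male and the others as female. All 10 tenocyte markers were tested, the sparsest being Chodl with 3 to 58 counts in a library. Their log2 fold changes between the genotypes were below 0 in 6 and above 0 in 4, with a median of -0.22. Nearest to 0 was Tnmd, a tendon membrane protein gene, at 1083 ± 148 CPM in WT against 1065 ± 207 CPM in Mkx-/- tendons (SD, n = 3 in each group).

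Cuzd1 had 17.4, 18.0 and 35.5 CPM in WT replicates 1, 2 and 3, from 221, 183 and 443 counts. In the Mkx-/- libraries it had 1.37, 0.773 and 1.67 CPM, from 15, 11 and 21 counts. WT replicate 3, the male library, stood at 2.04 times the lowest WT library, and the groups did not overlap. The mean was 23.6 ± 10.3 CPM in WT against 1.27 ± 0.455 CPM in Mkx-/- tendons (SD, n = 3 in each group). This was an 18.7-fold fall, or -4.23 as a log2 fold change (SE 0.39), and 5.34% of the WT level remained. Without WT replicate 3, in female libraries alone, the fall was 14.1-fold. The 47 counts over the 3 Mkx-/- libraries have an exact 95% Poisson interval of 34.5 to 62.5, which covers counting error only.

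Plbd1 had 16.0, 16.9 and 21.0 CPM in the WT libraries, from 203, 172 and 262 counts. In the Mkx-/- libraries it had 1.74, 1.41 and 2.22 CPM, from 19, 20 and 28 counts. Its WT libraries were the closest together of the 3 genes, with a coefficient of variation of 14.8% against 43.5% for Cuzd1 and 22.6% for Gsg1l. The mean fell from 18.0 ± 2.66 to 1.79 ± 0.409 CPM (SD, n = 3 in each group), a 10.03-fold fall and a log2 fold change of -3.33 (SE 0.22). In bulk tissue, fewer cells of a type and less RNA per cell cannot be told apart.

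Gsg1l was the member with the most counts, with 535, 681 and 745 in WT against 60, 103 and 75 in Mkx-/- tendons. Its levels were 42.15, 66.8 and 59.7 CPM in WT against 5.496, 7.24 and 5.95 CPM in Mkx-/- tendons. WT replicate 1 was the lowest WT library for all 3 members, and WT replicate 3 was the highest for Cuzd1 and Plbd1 but not for Gsg1l. The mean fell from 56.2 ± 12.7 to 6.23 ± 0.904 CPM (SD, n = 3 in each group), an 8.98-fold fall and a log2 fold change of -3.17 (SE 0.21), which left 11.1% of the WT level.

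**Figure D1:**
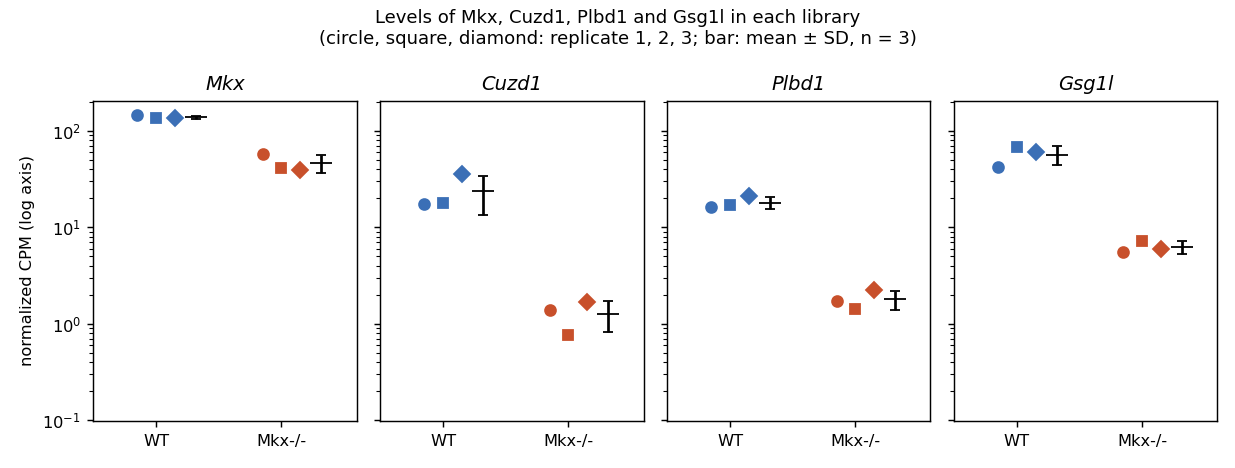
Normalized CPM (log axis) of Mkx and the 3 members in each of the 3 WT (blue) and 3 Mkx-/- (orange) libraries, with the mean ± SD beside the points. In each panel every Mkx-/- library lies below every WT library, and WT replicate 3 stands apart for Cuzd1 at 35.5 CPM.

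All 3 members were also called lower by edgeR with an adjusted p under 0.05 and a fall of more than 2-fold, as were 1.33% of the genes tested (1.89% were called higher), and their groups did not overlap in that direction, as in 13.6% of the genes tested. Both counts follow from how the genes were chosen. Among the 10215 genes with a WT mean of at least 5 CPM, 224 fell 2-fold or more, 46 fell 4-fold or more and 13 fell 9-fold or more. Cuzd1 was the second of these and Plbd1 the last of the 13. Just inside the 9-fold line, beside Plbd1, were Fgfr4 and Masp1 with falls of 10.7-fold and 10.8-fold. Just outside were Gsg1l itself and Zcchc12 with 8.35-fold, and in Zcchc12 the groups overlapped.

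**Figure D2:**
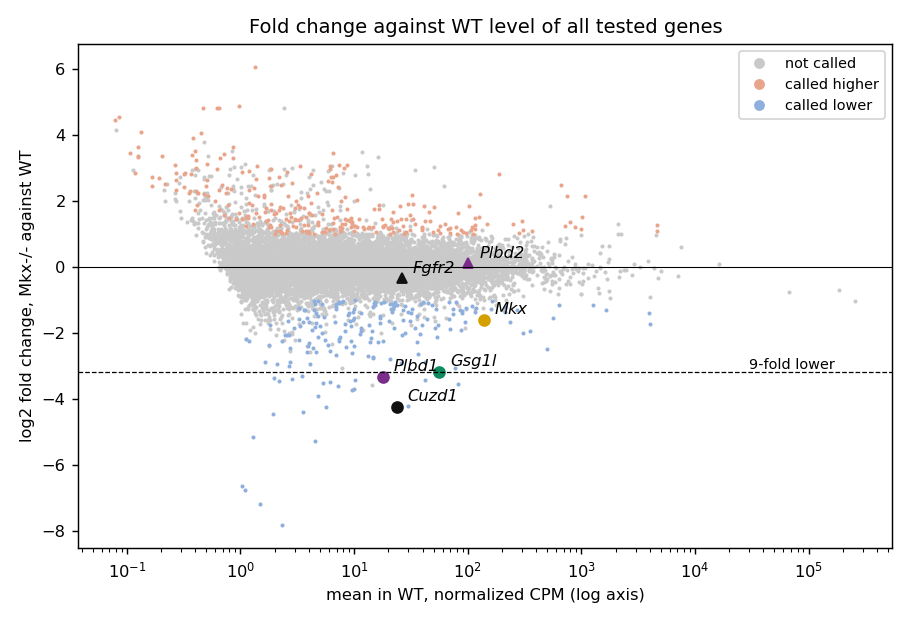
Log2 fold change of Mkx-/- against WT (vertical) by mean WT level in CPM (horizontal, log axis) for the 14550 tested genes, coloured by edgeR call. Cuzd1, Plbd1 and Gsg1l lie near or below the 9-fold line and Mkx above it at -1.60. The relative Plbd2 and Fgfr2, whose annotation record spans Cuzd1, lie near 0.

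Levels of different genes were compared after division by exonic length. In WT tendon the order was Gsg1l at 14.3 ± 3.24, Cuzd1 at 10.5 ± 4.56 and Plbd1 at 6.82 ± 1.01 CPM per kb (SD, n = 3 in each group). The libraries of Gsg1l (10.7 to 17.03) and Cuzd1 (7.72 to 15.7) overlapped, as did those of Cuzd1 and Plbd1 (6.07 to 7.97), whereas those of Gsg1l and Plbd1 did not. These levels lay above 82.7%, 76.4% and 65.5% of the 12870 tested genes with a length. In Mkx-/- tendon the order was Gsg1l at 1.59 ± 0.230, Plbd1 at 0.679 ± 0.156 and Cuzd1 at 0.563 ± 0.202 CPM per kb (SD, n = 3 in each group). The last pair overlapped, and the levels lay above 26.7%, 11.8% and 9.35% of the genes.
Ratios within a library set the genes against each other without scaling between libraries. Cuzd1 stood at 1.24 to 1.97 times Plbd1 per kb in the WT libraries and at 0.642 to 0.922 times Plbd1 in the Mkx-/- libraries. The ratio of Gsg1l to Plbd1 was 1.77 to 2.66 in WT and 1.80 to 3.46 in Mkx-/- libraries, and these ranges overlapped. That of Gsg1l to Cuzd1 was 0.966 to 2.14 in WT and 2.05 to 5.38 in Mkx-/- libraries, and these ranges also overlapped.

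The 6 libraries were then used to find the genes most like each member, by Pearson's r of log2 CPM among 10294 other genes that averaged 5 CPM or more. The points share 2 genotype groups, so r is given as a description. The 5 genes most like Cuzd1 were Pigz, Plbd1, Rps6ka1, Nfat5 and Bambi, with r from 0.9915 to 0.9948. Plbd1 was thus the second of 10294 for Cuzd1, and Cuzd1 the fourth for Plbd1, with r = 0.9945 over 6 libraries. The others nearest to Plbd1 were Cadm1, Slc16a1, Slc7a11, a cystine transporter gene, and Stab1, with r from 0.9928 to 0.9957. Gsg1l ranked lower, 86th for Cuzd1 (r = 0.9641) and 31st for Plbd1 (r = 0.9800). Its own nearest genes were Smyd2, Kcnn1, Zbtb34, Pitpnm3 and Smad5, with r from 0.9928 to 0.9980. A close pattern did not mean a fall of like size, since Nfat5 and Smyd2 had log2 fold changes of -0.28 and -0.31 and Slc7a11 had -4.22.

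The genes next to the members on the chromosome were not used to choose them. The 5 nearest annotated genes on each side that match a row of the table make 30 neighbours, of which 14 had enough counts to test. Called in either direction were 0 of the 14 by edgeR and 0 by DESeq2, against 3.22% of all genes tested. At an unadjusted p under 0.05 by edgeR, 2 of the 14 were lower and 0 higher. The share of all genes under that unadjusted p was not counted, here or for the lists below. Such counts therefore do not show an excess over other genes. Their log2 fold changes lay between -0.49 and 0.23. The largest belonged to Gtf3c1, a subunit gene of transcription factor TFIIIC at 171 kb from Gsg1l, with 97.4 ± 4.36 CPM in WT against 69.2 ± 0.855 CPM in Mkx-/- tendons (SD, n = 3 in each group). Its log2 fold change of -0.49 had an edgeR adjusted p of 0.0363 and was under the 2-fold threshold.
On either side of Gsg1l, D430042O09Rik at 3.62 kb had a log2 fold change of -0.15 and Xpo6, a nuclear export receptor gene at 19.3 kb, had -0.14 (adjusted p = 0.679 and 0.520 by edgeR). Beside Cuzd1, Fam24a and 1700007K09Rik had between 0 and 1 count in each library. The nearest tested genes there were 2310057M21Rik at 20.4 kb with -0.31 and, on the other side, Htra1, a secreted serine protease gene at 323 kb, with -0.22 (adjusted p = 0.563 and 0.499 by edgeR). Fgfr2, whose record spans Cuzd1, had 26.4 ± 4.15 CPM in WT against 20.9 ± 2.27 CPM in Mkx-/- tendons (SD, n = 3 in each group), with a log2 fold change of -0.34 (adjusted p = 0.237 by edgeR). Beside Plbd1, the guanylate cyclase gene Gucy2c at 35.4 kb had 0 counts in every library. The nearest tested genes, the pseudogene Rpl36a-ps3 at 123 kb and the histone gene H2afj at 146 kb, had log2 fold changes of 0.05 and 0.11 (adjusted p = 0.883 and 0.859 by edgeR).

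**Figure D3:**
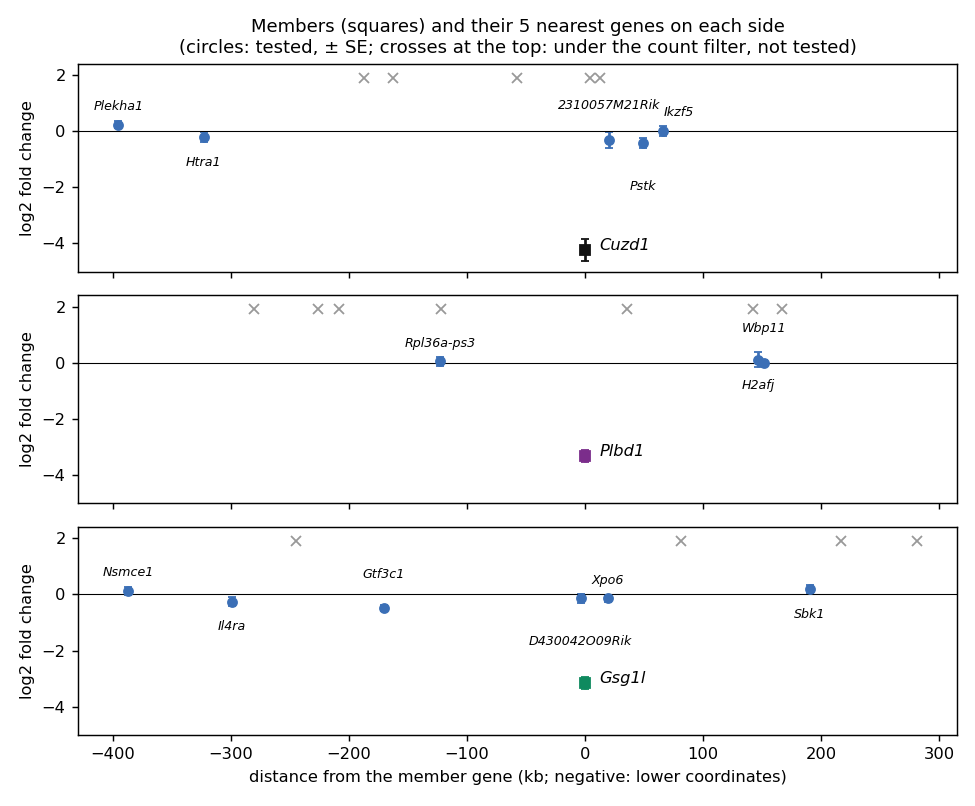
Log2 fold change (± standard error, derived from the test statistic of the fit) of each member (square) and of its tested neighbours (circles) by distance from the member in kb. Untested neighbours are crosses at the top. The 14 tested neighbours lie between -0.49 and 0.23, and the members between -3.17 and -4.23.

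The families and pathways of the 3 proteins were read from 6 gene lists with 223 different genes, of which 147 were tested. By edgeR 4 of the 147 were called lower and 6 higher, 6.80% in all against 3.22% of all genes tested. The median log2 fold change was 0.12, against -0.0037 over all genes. Without Mkx-/- replicate 1 the calls were 5 lower and 9 higher. They fell to 2 and 2 without WT replicate 3 or Mkx-/- replicate 3, to 2 and 3 without Mkx-/- replicate 2, and to 3 and 3 without WT replicate 2. The lists are described by their counts and were not tested as sets.

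Of 30 tested genes with CUB or zona pellucida domains, the domain types of Cuzd1, 3 were called lower and 2 higher, and the median was 0.025 on the log2 scale. Those with the most counts were Pcolce and Bmp1, the procollagen C-proteinase enhancer and the proteinase itself, with log2 fold changes of -0.089 and -0.026 (adjusted p = 0.863 and 0.957 by edgeR). Masp1, a serine protease gene of the lectin complement pathway, fell from 10.7, 7.66 and 12.2 CPM in WT to 0.366, 1.55 and 0.793 CPM in Mkx-/- libraries, which is a log2 fold change of -3.44 (SE 0.40, adjusted p = 0.00332 by edgeR). This is a fall of the size seen in Plbd1. Pamr1, a gene with a CUB and a protease-like domain, rose from 121.2, 146.6 and 116.8 CPM to 705.7, 484.9 and 585.1 CPM, which is a log2 fold change of 2.21 (SE 0.18, adjusted p = 0.000989 by edgeR).
The 3 others were less firm. Pdgfc, a growth factor gene, and Oit3, a zona pellucida domain gene, were called lower with log2 fold changes of -1.23 and -1.86 (adjusted p = 0.0202 and 0.0424 by edgeR). The level of Oit3 was 13.2 CPM in WT replicate 1 and 45.8 and 44.2 CPM in WT replicates 2 and 3. Sez6l, a neuronal gene, was called higher (adjusted p = 0.0468 by edgeR) from 0, 0 and 5 counts in WT and 41, 12 and 40 counts in Mkx-/- libraries. With libraries removed one at a time, Oit3 kept its call only without WT replicate 1 and Sez6l only without Mkx-/- replicate 2. Pdgfc lost its call without WT replicate 1 or 3 and without Mkx-/- replicate 2 or 3. The highest adjusted p was 0.130 for Oit3, 0.137 for Sez6l and 0.0763 for Pdgfc.

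In the mammary gland Cuzd1 acts with JAK2 and STAT5 and with ligands of the EGF family. Of 15 tested genes of these pathways edgeR called 0. DESeq2, which tested 23 genes of the list, called 1 lower and 0 higher. At an unadjusted p under 0.05 by edgeR there were 2 lower and 4 higher, with the share of all genes under that p not counted. Stat5a, Stat5b and Tgfa, an EGF receptor ligand gene, were higher with log2 fold changes of 0.73, 0.80 and 0.91 at an edgeR adjusted p of 0.0385, 0.0157 and 0.0226, and each was under the 2-fold threshold. The largest change of the list went the other way, in Erbb4, an EGF receptor family gene, and was not called in the main fit. Erbb4 had 37, 36 and 33 counts in WT against 1, 10 and 14 in Mkx-/- tendons. Its log2 fold change was -2.20 (adjusted p = 0.0523 by edgeR). Without Mkx-/- replicate 1, edgeR called 1 gene of this list lower and 0 higher. The growth hormone receptor gene Ghr, with the most counts beside Stat5b, had 88.8 ± 17.7 CPM in WT against 60.3 ± 7.83 CPM in Mkx-/- tendons (SD, n = 3 in each group, adjusted p = 0.0985 by edgeR).

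For Plbd1 the closest relative is Plbd2, a lysosomal gene. It had 97.8, 102.7 and 103.2 CPM in WT against 115.3, 111.4 and 103.8 CPM in Mkx-/- libraries. Its log2 fold change was 0.12 with a standard error of 0.11 (adjusted p = 0.559 by edgeR). Every Mkx-/- library lay above every WT library, as in 14.6% of all genes tested. Of 26 tested phospholipase and lysophospholipase genes 1 was called lower and 0 higher, with a median of -0.089. That gene was Pla2g5, which encodes the secreted group V phospholipase A2. It fell from 274.7, 376.1 and 413.8 CPM in WT to 99.4, 94.5 and 85.4 CPM in Mkx-/- libraries, which is a log2 fold change of -1.93 (SE 0.18, adjusted p = 0.00135 by edgeR), and stayed past the threshold whichever of the 6 libraries was removed. Plb1, the phospholipase B gene of the intestine, had 1.16 ± 0.400 CPM in WT against 2.43 ± 0.120 CPM in Mkx-/- tendons (SD, n = 3 in each group, adjusted p = 0.101 by edgeR).
Of 45 lysosomal hydrolase and membrane protein genes, all tested, edgeR and DESeq2 each called 0. By edgeR 37 had a fold change above 0 and 8 below, with a median log2 fold change of 0.12. At an unadjusted p under 0.05, 10 were higher and 1 lower. The share of all genes under that p was not counted, so these numbers do not set the list apart. The pair with the most counts, Psap and Ctsb, the genes of prosaposin and cathepsin B, had means of 697 and 511 CPM in WT against 697 and 560 CPM in Mkx-/- tendons. Scaled by library size only, which raised the median of all genes by 0.25, this list had a median of 0.38.

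Among markers of myeloid cells, all 13 macrophage and monocyte markers had a fold change below 0, with a median of -0.55, and 2 were called lower, Mrc1 and Emr1, with log2 fold changes of -1.14 and -1.09 (adjusted p = 0.0135 and 0.00921 by edgeR). Their summed level was 645 to 708 CPM in WT and 416 to 514 CPM in Mkx-/- libraries, and 0 markers were at 0. The pair with the most counts, Lyz2 and Csf1r, had log2 fold changes of -0.55 and -0.63 against -3.33 for Plbd1. Scaled by library size only, 12 of the 13 were below 0 and 0 were called. Neutrophil markers were sparse, with 2 of 12 tested, Ly6g at no more than 1 count in any library, 1 of the tested pair above 0 and 1 below, and a sum of 5.93 to 32.3 CPM in WT and 2.75 to 47.5 CPM in Mkx-/- libraries. The sum was highest in Mkx-/- replicate 2. The part of these cells in the level of Plbd1 was not tested.

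Gsg1l was set beside the AMPA receptors and their auxiliary proteins. Of the 4 receptor subunit genes, Gria3 had the most counts, at 17 ± 2.75 CPM in WT against 17.6 ± 1.40 CPM in Mkx-/- tendons (SD, n = 3 in each group), and Gria1 had between 0 and 4 counts in each library. Of 21 tested genes of this list 0 were called lower and 2 higher, and the median was a log2 fold change of 0.17. Cacng7, which encodes another auxiliary subunit of AMPA receptors of the same fold as Gsg1l, rose from 7, 5 and 14 counts in WT to 91, 121 and 87 counts in Mkx-/- libraries. Its level went from 0.721 ± 0.348 to 7.91 ± 0.882 CPM (SD, n = 3 in each group), which is a log2 fold change of 3.42 (SE 0.31, adjusted p = 0.00138 by edgeR), opposite in direction to Gsg1l. Grip2, a scaffold protein gene, rose from 0.968 ± 0.147 to 3.04 ± 1.15 CPM (SD, n = 3 in each group, adjusted p = 0.0404 by edgeR). Without any 1 library other than Mkx-/- replicate 1, Grip2 was not past the threshold (adjusted p up to 0.132). Olfm1, which encodes a secreted partner of these receptors, had a log2 fold change of 0.99, just under the threshold, at an edgeR adjusted p of 0.0108. The pair with the most counts, Dlg4 and Abhd12, had log2 fold changes of -0.001 and 0.26 (adjusted p = 0.999 and 0.245 by edgeR).

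Gsg1, the relative after which Gsg1l is named, was near absent, with 3, 0 and 1 counts in WT and 4, 7 and 6 counts in Mkx-/- libraries, and was not tested. Gsg1l2 was not among the gene symbols counted, so it could not be analysed. Of 14 tested genes of the claudin and PMP22 superfamily 0 were called lower and 2 higher, Cldn19 and Perp. The median log2 fold change was 0.69, and 12 of the 14 were above 0. Cldn19, a tight junction gene, had 88.8, 124.5 and 123.0 CPM in WT against 151.4, 243.4 and 282.8 CPM in Mkx-/- libraries, which is a log2 fold change of 1.01 (adjusted p = 0.0493 by edgeR). Perp, a gene of desmosome assembly, had a log2 fold change of 1.81 (adjusted p = 0.0323 by edgeR). Cldn19 kept its call when Mkx-/- replicate 1 was removed and lost it when any other library was, with adjusted p up to 0.153. Perp kept its call when WT replicate 1 or Mkx-/- replicate 1 was removed and lost it otherwise, with adjusted p up to 0.108. Pmp22, the peripheral myelin protein gene and with Emp1 the most counted of the list, had a log2 fold change of 0.997 (adjusted p = 0.0520 by edgeR), and Emp1 had 0.81 (adjusted p = 0.127 by edgeR).
Schwann cell markers, which include Pmp22, were all 9 above 0, with a median of 0.97, 0 called by edgeR and 0 at 0. At an unadjusted p under 0.05 by edgeR 8 were higher, with the share of all genes under that p not counted. Without Mkx-/- replicate 1, 7 of the 9 were called higher. Their summed level was 8130 to 10800 CPM in WT and 12600 to 23400 CPM in Mkx-/- libraries. Their part in the claudin and PMP22 list was not tested.

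**Figure D4:**
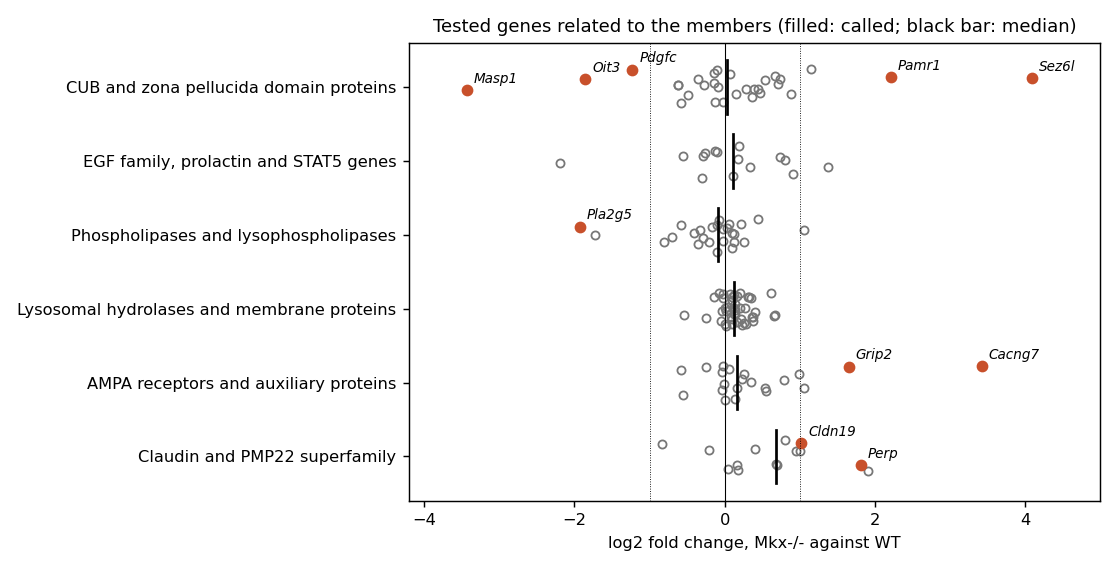
Log2 fold change of Mkx-/- against WT for every tested gene of the 6 related lists, with called genes filled and named and the median of each list as a black bar. Among the called genes Masp1 and Pla2g5 lie on the left, whereas Cacng7 and Pamr1 lie on the right. The members are not in these lists and are not drawn.

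Many markers of the other cell types from which Cuzd1 and Gsg1l or their relatives are known were at or near 0. Of 12 markers of exocrine pancreas, 8 had 0 counts in every library, among them the amylase gene Amy2a5 and Ptf1a. The list summed to 0.393 to 0.551 CPM in WT and 1.26 to 2.46 CPM in Mkx-/- libraries. Of 8 germ cell markers, 5 had 0 counts in every library and the list summed to at most 0.320 CPM. Of 11 neuron markers, 5 had no more than 3 counts in any library, and the list summed to 40.9 to 73.7 CPM in WT and 45.7 to 50 CPM in Mkx-/- libraries, mostly through Map2 with 51.2 ± 15.9 and 40 ± 4.42 CPM (SD, n = 3 in each group).
Other markers differed between the groups. The summed level of 15 skeletal muscle markers was 106 to 437 CPM in WT and 610 to 3150 CPM in Mkx-/- libraries, with 0 markers at 0. That of 12 endothelial markers was 75.9 to 96.3 and 139 to 193 CPM, and that of 10 epithelial markers was 19.4 to 33.1 and 35.2 to 40 CPM. Of the tested genes in these 3 lists, 14 of 15, 10 of 12 and 4 of 5 had a fold change above 0. Called higher were 3 muscle genes (Tnnt3, Tnni2 and Casq1), 2 endothelial genes (Erg and Ecscr) and 0 epithelial genes, and 0 were called lower. The 10 tenocyte markers summed to 381000 to 526000 CPM in WT and 243000 to 338000 CPM in Mkx-/- libraries, mostly through Col1a1 and Col1a2, with Col11a2 called lower (log2 fold change -1.72, adjusted p = 0.0107 by edgeR) and Thbs4 called higher (1.26, adjusted p = 0.0118 by edgeR). The 11 chondrocyte markers overlapped between the groups in their sum, 546 to 1080 against 822 to 1330 CPM, mostly through Col2a1 with a log2 fold change of -0.084. Of 9 tested, 3 chondrocyte markers were called higher, Ucma, Acan and Matn3, with log2 fold changes of 3.47, 2.20 and 1.45 (adjusted p = 0.000158, 0.0038 and 0.00181 by edgeR), and 0 lower. The part of these cell types in the levels of the members was not tested.

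**Figure D5:**
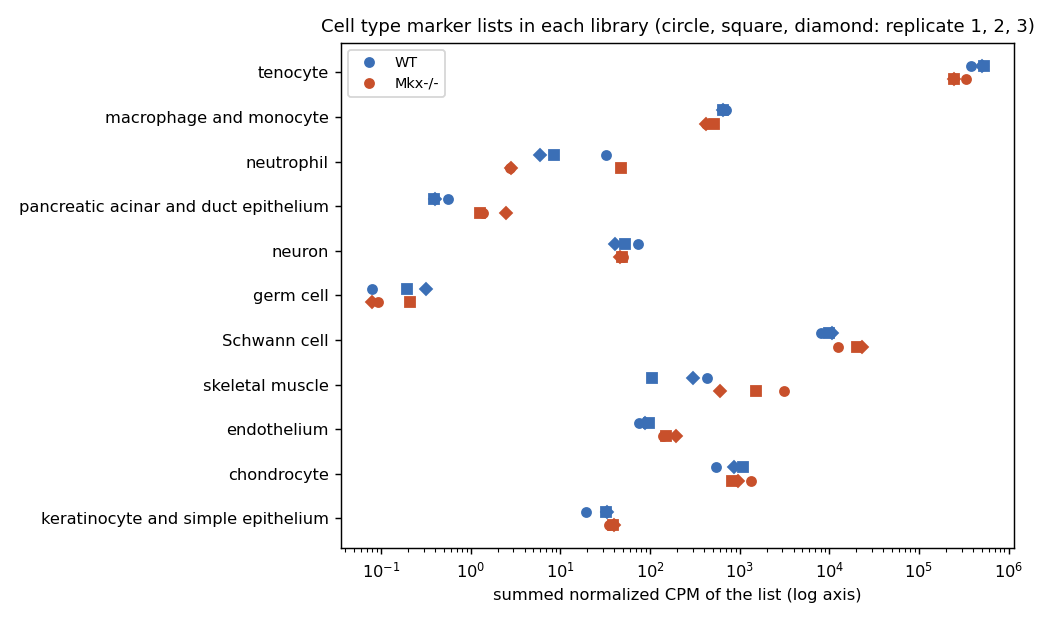
Summed normalized CPM (log axis) of each cell type marker list in the 3 WT (blue) and 3 Mkx-/- (orange) libraries. Tenocyte and macrophage lists are lower in every Mkx-/- library, and the pancreas and germ cell lists stay below 3 CPM in all 6.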

How the data were processed

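The authors removed adaptors and low-quality reads, aligned the rest to mm9 with MapSplice and deposited raw counts per gene symbol, without normalization. The counting program, annotation and strand setting are not given in the sources used here. All 6 columns matched sample labels, and 0 were left unused. Single-cell and rat data were not analysed here.

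From the deposited counts, edgeR 4.0.16 in R 4.3.3 was used with TMM normalization, the filterByExpr filter, one quasi-likelihood model with a term for genotype, and Benjamini-Hochberg adjustment over 14550 genes. Genes were called where the adjusted p was under 0.05 and the change over 2-fold. Standard errors (SE) are the absolute log2 fold change divided by the square root of the quasi-likelihood F statistic. DESeq2 1.42.0, other scalings and filters, a replicate block and the removal of single libraries were the alternatives. Lengths and neighbours came from GENCODE annotation of mm9.

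The members and lists were chosen with earlier results of these data known. Named genes were Mkx, the members and their relatives, called list genes, the 2 genes of each list with the highest mean CPM, nearest and called neighbours, the 5 most similar genes and those beside the 9-fold line, of which 1 is not reported here. Gtf3c1, Stat5a, Stat5b, Tgfa, Erbb4, Olfm1, Plb1, Gria1, Gria3 and single markers were named after their values were seen. Between replicate libraries chi-square per degree of freedom was at least 8.22, more than counting noise gives for 1 library deposited again. Separate preparations of the same RNA would not be told apart by this.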

Additional observations from a re-analysis of the deposited data

How the results depend on the processing

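The falls of the members kept their direction in all 12 alternatives, at 14.1-fold to 22.4-fold for Cuzd1, 8.37-fold to 11.4-fold for Plbd1 and 7.42-fold to 10.1-fold for Gsg1l. Scaled by library size only, the log2 fold changes were -3.96 for Cuzd1, -3.06 for Plbd1 and -2.89 for Gsg1l. That scaling also gave 154 lower and 711 higher calls, 82.2% of them higher against 58.8% with TMM, and 14 related genes called higher. A filter of 1 count in any library gave 322 lower and 541 higher calls and 13 related genes called higher. Without one library at a time, genes called lower numbered 112 to 248, genes called higher 103 to 321, related genes called lower 2 to 5, related genes called higher 2 to 9, and neighbours 0, and the log2 fold changes ran from -4.49 to -3.82 for Cuzd1, -3.52 to -3.17 for Plbd1 and -3.34 to -3.04 for Gsg1l. The fewest calls in both directions came without WT replicate 3, and the fewest related genes without WT replicate 3 or Mkx-/- replicate 3. The cause was not tested.

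Nothing in the labels says that the replicate numbers pair the libraries, and the main fit did not pair them. The deviations of same-numbered libraries from their group means correlated at 0.0261, -0.210 and 0.297. WT replicate 1 correlated best with Mkx-/- replicate 2, at 0.398. Deviations within groups of 3 depend on each other, so these values cannot settle whether libraries were paired. With the replicate block, 136 genes were called lower and 195 higher, 3 related genes lower and 3 higher. Counts of about 10 to 30 per library, as for Cuzd1 and Plbd1 in Mkx-/- tendons, limit how far the remaining level can be told from a lower one.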

Other observations

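The 13 genes with a WT mean of at least 5 CPM that fell 9-fold or more include a glutamate receptor gene, Grin3a, and the AMPA receptor partner Gsg1l lies just outside this limit. They were picked by their fall and are described without a test. Grin3a, an NMDA receptor subunit gene, had 5.04, 5.5 and 5.45 CPM in WT against 0.458, 0.211 and 0.713 CPM in Mkx-/- libraries. Unc5c, a netrin receptor gene, had the largest fall, 19.1-fold, with 8.43, 4.32 and 4.17 CPM in WT and at most 0.492 CPM in Mkx-/- libraries.

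The same genes include Car12, a membrane carbonic anhydrase gene, with a 12.2-fold fall, and Ndst4, a heparan sulfate sulfotransferase gene, with an 11.2-fold fall and WT libraries between 6.07 and 6.18 CPM. Ppp1r3c, a glycogen-targeting phosphatase subunit gene, had 81.6 ± 14.8 CPM in WT against 6.96 ± 0.872 CPM in Mkx-/- tendons (SD, n = 3 in each group). In LOC102633532 the groups overlapped, with 1.5 CPM in WT replicate 1 and 2.11 CPM in Mkx-/- replicate 1.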
